A study of Mus musculus with 7 samples.

Results

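The genes described here act in G2 phase and mitosis, the stages in which a cell that has copied its DNA condenses its chromosomes, attaches them to a spindle and divides. Of 44 listed genes 42 were measured among the 22180 genes of the series. Members were taken as the genes with a probe set annotated to that gene symbol alone, and each of the 42 had 1 such probe set. No such probe set was found for Ccnb1, and the probe set of Ncapg is shared with another gene, so neither has a value here. Atp4b-DTR mice aged 8 to 12 weeks gave RNA from the gastric corpus, where the stomach makes its acid, and each sample was measured on 1 array. All groups carry the transgene, the saline control included. Its receptor for diphtheria toxin follows Atp4b, a proton pump subunit made by parietal cells, and the toxin ablates these cells reversibly. Mice received 225 ng of diphtheria toxin per mouse by intraperitoneal injection on 3 consecutive days and were killed 24, 36, 48 or 72 h after the last dose, and the control received saline. Littermates served as controls where possible. There were 7 arrays, namely 1 control, 1 each of 24 h and 36 h, and 2 each of 48 h and 72 h. The 48 h and 72 h samples are called independent, but the sources used here give neither the strain nor how many animals went into a sample.

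Entry into mitosis is driven by the kinase Cdk1 bound to A and B type cyclins, and exit by the anaphase-promoting complex, a ubiquitin ligase that marks the cyclins for destruction. In resting cells most of these genes are held silent by a repressor complex, DREAM, that binds a short promoter element called CHR (cell cycle genes homology region). When cells cycle, the same element is bound by activating complexes that contain B-Myb and FoxM1. In the gastric corpus the dividing cells are chiefly progenitors in the isthmus of the gland, from which parietal and surface cells renew.

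Levels are log2 signal, and a difference is a log2 value minus that of the control unless another contrast is named. At least 9 of 10 parietal cell markers were lower than the control on each toxin array, and Atp4b was at 12.94 in the control against 10.68 (24 h), 12.33 (36 h), 11.66 and 12.39 (48 h) and 12.65 and 12.92 (72 h). Xist, made from the inactive X chromosome of females, read 8.13 in the control, 9.17 at 24 h and between 2.70 and 3.27 on the other 5 arrays, and the Y-linked Eif2s3y was at 3.81 and 3.40 against 7.79 to 8.39. Sex and time therefore cannot be told apart in the comparisons of 36, 48 and 72 h with the control, or where the 24 h array is set against later ones. There is no replicate for the control, 24 h or 36 h, and whatever is peculiar to the single control sample is part of each difference from it. The number of arrays limits the precision. In whole tissue, a change in the number of dividing cells and a change in RNA per cell cannot be told apart.

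All 42 genes were higher than the control on the 24 h and 36 h arrays and on both 48 h arrays, and the differences were smaller at 72 h. Of all 22180 genes 9673 to 9960 were higher than the control on each of these 24, 36 and 48 h arrays. The median difference of the 42 genes was 1.28 (24 h), 0.88 (36 h), 1.01 and 0.72 (48 h) and 0.61 and 0.33 (72 h), whereas the median of all genes was 0 on every array. At 24 h the differences ran from 0.54 for Spc25 to 1.97 for Knl1. At 36 h they ran from 0.36 for Kif2c to 1.52 for Mki67. On the second 72 h array 39 of the 42 genes still lay above the control, against 10172 of all 22180 genes. Zwilch, Nusap1 and Anln lay at -0.04, -0.11 and -0.07. At 24 h 35 of the 42 were at least 2-fold higher than the control, against 1.2% of all genes. At 36 h the count was 16, against 0.933% of all genes. It was 9 with array medians subtracted, a scaling for which the share of all genes is not given here. The 48 h arrays had 22 and 12 such members (0.947% and 0.685% of all genes) and the 72 h arrays 4 and 1 (0.649% and 0.473%). At least 0.5 log2 above the control lay 42 members at 24 h (5.47% of all genes), 38 at 36 h (5.44%), 40 and 35 at 48 h (4.55% and 5.09%) and 28 and 11 at 72 h (4.59% and 4.01%). Between the arrays of a pair no member differed by 2-fold or more in either direction. Of all genes 46 at 48 h (0.207%) and 57 at 72 h (0.257%) were at least 2-fold higher on the first array. At least 2-fold lower on the first array were 61 genes at 48 h and 14 at 72 h. At 48 h 1 member was at least 0.5 log2 higher on the first array (2.47% of all genes), and at 72 h 2 members were (1.6%). The pair difference had a median of 0.22 at 48 h and 0.28 at 72 h, array 1 minus array 2.

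**Figure D1:**
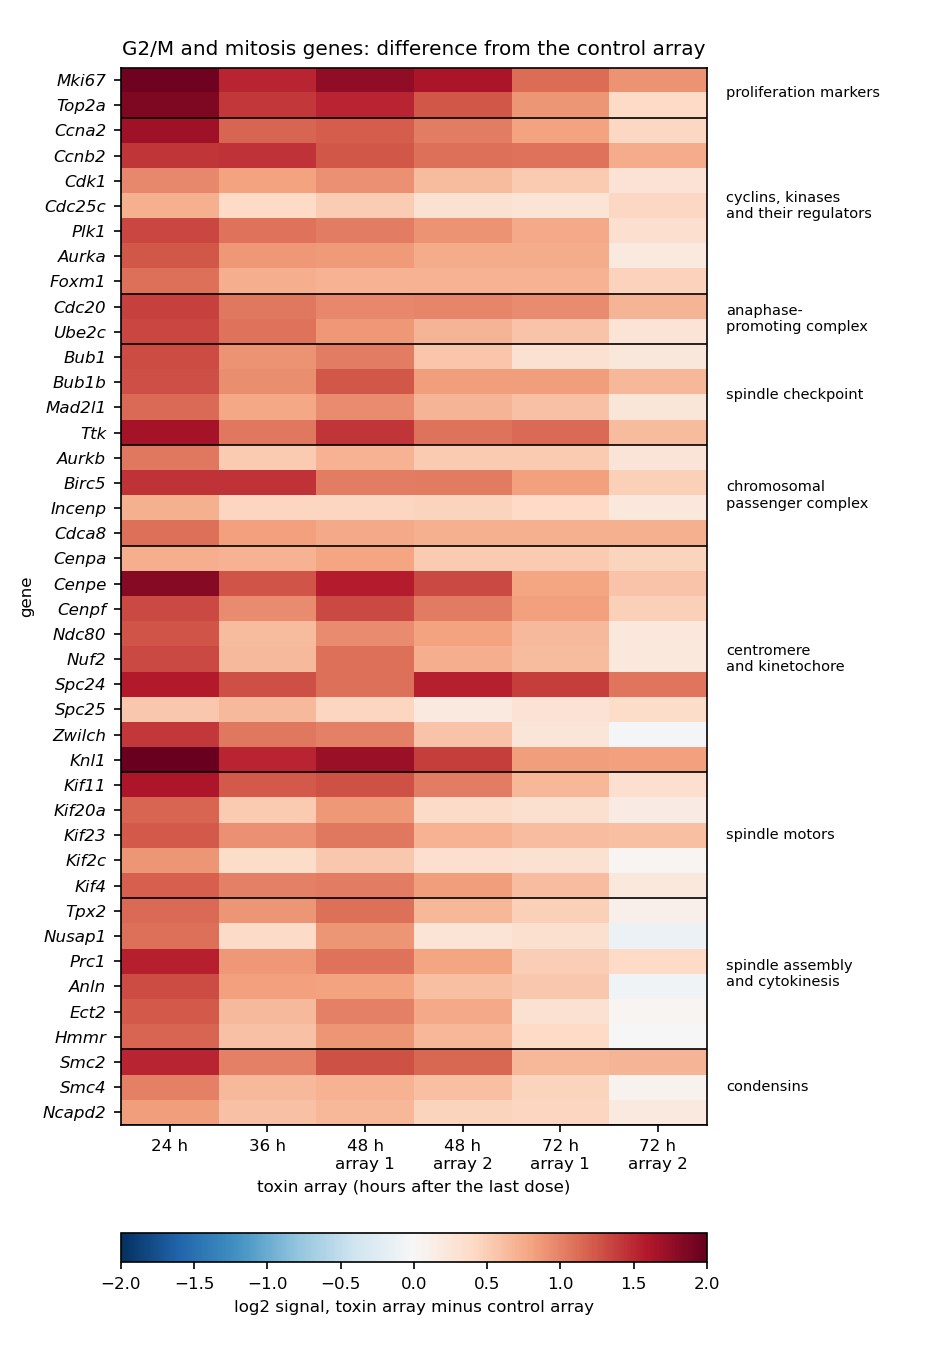
Log2 difference from the control array for the 42 measured genes (rows, grouped by role) on each of the 6 toxin arrays (columns), with red for higher and blue for lower. The 24 h column is the darkest for most genes, the first 48 h array is darker than the second, and the second 72 h array holds the 3 genes that lie below the control.

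The 24 h array held the highest value in 39 of the 42 genes, against 14.4% of all genes, and the control held the lowest in 39 of 42, against 20.2%. The exceptions to the first were Ccnb2, Cenpa and Spc25. The exceptions to the second were Zwilch, Nusap1 and Anln. The order of 36 h and 48 h was mixed: 29 of the 42 were higher on the first 48 h array than at 36 h, and 11 on the second (43.6% and 41.7% of all genes). The full order of 24 h, 36 h, 48 h, 72 h and control, with the pairs averaged, was met by 19 members, or 45.2%, against 1.7% of all genes. Both 72 h arrays lay below the 24 h array in all 42 genes, against 30.8% of all genes, and below both 48 h arrays in 32, against 13%.

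The CHR element was looked for in the promoters of the listed genes, as a description that does not use their values. Whether the element has a part in the course over the arrays was not tested. RefSeq promoter windows (assembly GRCm38.p6, 250 bases before to 50 after the annotated start) were available by symbol for 34 of the 44 listed genes, 32 of them measured. The letters of the CHR, TTTGAA or TTCGAA on either strand, occurred in 28 of the 34 members (82.4%) and in 21.7% of the 27025 genes with a window. With the motif centre within 50 bases of the start, a limit chosen after the positions were seen, the CHR occurred in 25 of 34 members and in 6.35% of all genes. The CCAAT box, bound by NF-Y, occurred in 26 of 34 (76.5%) against 41.1%, and both motifs in 24 of 34 (70.6%) against 8.61%. The E2F letters TTTCGCGC, TTTGGCGC, TTTCCCGC or TTTGCCGC occurred in 3 of 34 (8.82%), Cdk1, Ncapg and Ncapd2, against 2.61%. A match describes the letters of the window and does not show that a factor binds there.

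One stretch per role is shown, from 150 bases before to 50 after the start, for the member with the largest mean difference over the toxin arrays that has a window. Capitals mark the CHR (TTTGAA, or TTCAAA where it lies on the other strand) and the CCAAT box (CCAAT, or ATTGG on the other strand). The promoters are of Mki67 (chr7:135716330-135716529, minus strand), Ccnb2 (chr9:70421505-70421704, minus), Cdc20 (chr4:118437294-118437493, minus), Ttk (chr9:83834539-83834738, plus), Birc5 (chr11:117849087-117849286, plus), Knl1 (chr2:119046969-119047168, plus), Kif11 (chr19:37376232-37376431, plus), Prc1 (chr7:80294301-80294500, plus) and Smc2 (chr4:52439071-52439270, plus).
Mki67: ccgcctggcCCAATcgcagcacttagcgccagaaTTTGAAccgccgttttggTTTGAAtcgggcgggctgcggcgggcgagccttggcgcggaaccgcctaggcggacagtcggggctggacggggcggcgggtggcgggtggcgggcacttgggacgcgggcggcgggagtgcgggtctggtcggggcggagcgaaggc
Ccnb2: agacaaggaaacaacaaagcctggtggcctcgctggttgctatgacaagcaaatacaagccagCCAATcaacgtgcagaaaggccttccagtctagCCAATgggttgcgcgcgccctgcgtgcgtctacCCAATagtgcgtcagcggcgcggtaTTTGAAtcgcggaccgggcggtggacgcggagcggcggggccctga
Cdc20: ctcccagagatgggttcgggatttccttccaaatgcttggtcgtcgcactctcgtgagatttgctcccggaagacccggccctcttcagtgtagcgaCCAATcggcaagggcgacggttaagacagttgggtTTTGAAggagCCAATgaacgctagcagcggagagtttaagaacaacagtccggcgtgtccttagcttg
Ttk: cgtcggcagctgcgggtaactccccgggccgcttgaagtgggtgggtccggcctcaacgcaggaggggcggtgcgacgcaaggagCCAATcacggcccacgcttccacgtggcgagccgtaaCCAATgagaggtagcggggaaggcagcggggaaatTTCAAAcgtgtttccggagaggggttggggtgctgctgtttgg
Birc5: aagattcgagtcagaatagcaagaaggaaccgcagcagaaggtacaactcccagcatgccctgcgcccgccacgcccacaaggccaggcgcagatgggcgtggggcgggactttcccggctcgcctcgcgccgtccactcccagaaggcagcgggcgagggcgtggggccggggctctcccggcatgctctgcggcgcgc
Knl1: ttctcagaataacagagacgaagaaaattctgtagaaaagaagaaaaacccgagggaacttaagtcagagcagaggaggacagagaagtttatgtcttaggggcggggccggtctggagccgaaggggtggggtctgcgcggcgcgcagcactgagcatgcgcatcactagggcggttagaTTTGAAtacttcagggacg
Kif11: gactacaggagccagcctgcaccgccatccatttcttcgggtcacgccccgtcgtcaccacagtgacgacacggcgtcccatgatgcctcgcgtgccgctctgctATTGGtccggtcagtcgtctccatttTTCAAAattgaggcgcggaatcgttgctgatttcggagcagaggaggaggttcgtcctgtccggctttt
Prc1: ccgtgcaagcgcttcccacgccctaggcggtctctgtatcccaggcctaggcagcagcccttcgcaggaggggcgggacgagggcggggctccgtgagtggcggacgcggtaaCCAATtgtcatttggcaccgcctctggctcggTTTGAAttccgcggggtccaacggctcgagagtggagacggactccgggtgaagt
Smc2: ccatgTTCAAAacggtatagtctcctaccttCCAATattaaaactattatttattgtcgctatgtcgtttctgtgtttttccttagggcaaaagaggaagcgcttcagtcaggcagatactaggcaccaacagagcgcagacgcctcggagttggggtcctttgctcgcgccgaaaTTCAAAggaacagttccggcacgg
Ccnb2 has 3 CCAAT boxes upstream of a CHR at the start, Ttk and Cdc20 have 2 with a CHR, and Kif11 and Prc1 have 1 with a CHR. In Mki67 both CHRs lie further upstream. Knl1 has a CHR after its start and no CCAAT box, and Smc2 has 2 CHRs and a CCAAT box. The Birc5 window holds neither motif.

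**Figure D2:**
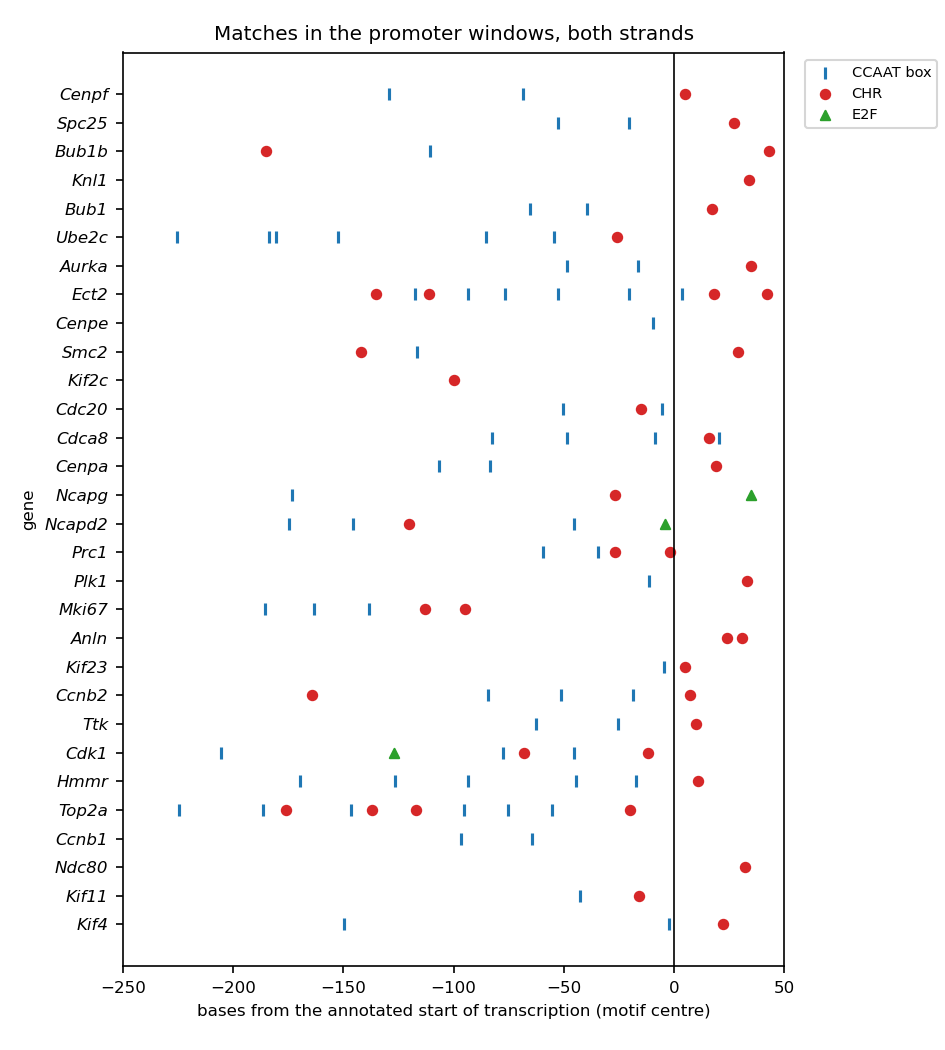
Positions of CHR, CCAAT box and E2F letter matches on either strand (horizontal axis, bases from the annotated start to the motif centre) in the 30 members with at least 1 match (rows). The CHR matches gather around the start and the CCAAT boxes upstream of it; Ect2 and Prc1 have more than 1 annotated start, and the matches of each start are drawn on 1 row, while the other 4 members with a window, Mad2l1, Birc5, Nuf2 and Nusap1, had no match.

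Mki67 encodes Ki-67, a chromosome surfactant used as the standard marker of cycling cells, and Top2a the topoisomerase that untangles sister DNA. Mki67 had a signal of 7.69 in the control against 9.64 (24 h), 9.21 (36 h), 9.47 and 9.33 (48 h) and 8.81 and 8.60 (72 h). Every toxin array lay above the control, and both 72 h arrays lay below the other toxin arrays. The difference from the control was 3.85-fold at 24 h and 2.01-fold at 72 h. Top2a had 6.52 in the control against 8.38 (24 h), 7.93 (36 h), 8.04 and 7.76 (48 h) and 7.41 and 6.91 (72 h). As in Mki67 every toxin array lay above the control and both 72 h arrays lay below the others, with a wider gap between the arrays of 72 h.

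Among the cyclins, kinases and their regulators, the 7 measured genes had a median of 1.25 (24 h), 0.87 (36 h), 0.92 and 0.74 (48 h) and 0.74 and 0.41 (72 h). Ccnb2, the B type cyclin measured here, had a signal of 6.12 in the control against 7.55 (24 h), 7.57 (36 h), 7.36 and 7.23 (48 h) and 7.21 and 6.86 (72 h). It was as high at 36 h as at 24 h and stayed 1.89-fold above the control at 72 h. Ccna2, the A type cyclin that acts from S phase into early mitosis, differed by 1.70 (24 h), 1.16 (36 h), 1.12 (48 h) and 0.61 (72 h). The catalytic partner Cdk1 was at 0.96, 0.81, 0.77 and 0.40 at the same times. Aurka, the kinase of the centrosomes and spindle poles, had 5.74 in the control against 6.98 (24 h), 6.61 (36 h), 6.60 and 6.47 (48 h) and 6.47 and 5.94 (72 h). Its second 48 h array and first 72 h array had equal values. Plk1, a kinase that promotes mitotic entry and spindle assembly, was at 1.33 at 24 h and 0.54 at 72 h, and Foxm1, the transcription factor that activates many of these genes, at 1.11 and 0.57. Cdc25c, the phosphatase that activates Cdk1, had the smallest mean difference of the group at each time, though not on the second 72 h array, with 4.21 in the control against 4.93 (24 h), 4.61 (36 h), 4.72 and 4.52 (48 h) and 4.49 and 4.63 (72 h). Its signal was the lowest of the 42 genes on every array, near the array medians of 4.56 to 4.71. Its 48 h and 72 h arrays overlapped.

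Cdc20 activates the anaphase-promoting complex in mitosis, and Ube2c is the ubiquitin-conjugating enzyme that works with it. Cdc20 had a signal of 6.16 in the control against 7.52 (24 h), 7.21 (36 h), 7.11 and 7.13 (48 h) and 7.10 and 6.83 (72 h). Ube2c had 5.59 in the control against 6.93 (24 h), 6.67 (36 h), 6.45 and 6.28 (48 h) and 6.16 and 5.87 (72 h). The genes were near each other at 24 h, at 1.36 and 1.34 from the control, and at 72 h Cdc20 was at 0.81 and Ube2c at 0.43.

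Spindle checkpoint genes delay anaphase until every chromosome is attached. Ttk, the kinase that starts the checkpoint signal, had a signal of 5.19 in the control against 6.86 (24 h), 6.26 (36 h), 6.63 and 6.28 (48 h) and 6.33 and 5.83 (72 h). Its 48 h and 72 h arrays overlapped, and all lay above the control. Mad2l1, part of the complex that inhibits Cdc20, had 6.16 in the control against 7.28 (24 h), 6.93 (36 h), 7.10 and 6.83 (48 h) and 6.74 and 6.40 (72 h). Bub1, a kinetochore kinase of the checkpoint, had 4.61 in the control against 5.92 (24 h), 5.51 (36 h), 5.63 and 5.16 (48 h) and 4.92 and 4.84 (72 h). The related Bub1b, another part of the Cdc20 inhibitor, was at 1.29 at 24 h and 0.75 at 72 h, where Bub1 was at 0.27.

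The chromosomal passenger complex corrects faulty attachments and directs cytokinesis through its kinase, Aurkb, held by Birc5 (survivin), Cdca8 (borealin) and the scaffold Incenp. Birc5 had a signal of 4.51 in the control against 5.96 (24 h), 5.95 (36 h), 5.54 and 5.55 (48 h) and 5.33 and 4.99 (72 h). The 24 h and 36 h arrays were alike, and the 72 h arrays lay below both 48 h arrays. Aurkb had 6.23 in the control against 7.28 (24 h), 6.75 (36 h), 6.93 and 6.75 (48 h) and 6.75 and 6.49 (72 h). Incenp had 5.97 in the control against 6.68 (24 h), 6.40 (36 h), 6.40 and 6.41 (48 h) and 6.36 and 6.18 (72 h). All toxin arrays of the 4 genes lay above the control. Cdca8 differed by 1.10 (24 h), 0.82 (36 h), 0.74 (48 h) and 0.72 (72 h). Its signal was 5.67 on the second 48 h array and on both 72 h arrays, and such equal values narrow its fitted error.

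The kinetochore joins chromosomes to spindle microtubules. Knl1, its scaffold for checkpoint proteins, had a signal of 5.34 in the control against 7.32 (24 h), 6.86 (36 h), 7.07 and 6.73 (48 h) and 6.17 and 6.16 (72 h). It was 3.93-fold above the control at 24 h and 1.77-fold at 72 h. Ndc80, Nuf2, Spc24 and Spc25 encode the 4 subunits of the Ndc80 complex, which binds the microtubule itself. Their values did not run alike over these arrays, but differences between the subunits were not tested. Nuf2 had 6.16 in the control against 7.48 (24 h), 6.80 (36 h), 7.26 and 6.89 (48 h) and 6.79 and 6.37 (72 h), and its partner Ndc80 differed by 1.26 (24 h) and 0.43 (72 h), against 1.32 and 0.42 for Nuf2. Spc24 was at 1.58 at 24 h and still at 1.22 at 72 h. Spc25 had 6.06 in the control against 6.60 (24 h), 6.72 (36 h), 6.50 and 6.26 (48 h) and 6.35 and 6.43 (72 h). Its highest value was at 36 h, and its 48 h and 72 h arrays overlapped. Cenpe, a motor at the kinetochore, was at 1.82 at 24 h and 0.68 at 72 h, Cenpf, a large kinetochore protein, at 1.33 and 0.65, and Cenpa, the histone variant that marks the centromere, at 0.72 and 0.48. Zwilch, part of the complex that brings dynein to the kinetochore, was at 1.42 at 24 h and 0.10 at 72 h.

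Spindle motors of the kinesin family move along or take apart microtubules. Kif11, which pushes the spindle poles apart, had a signal of 6.22 in the control against 7.84 (24 h), 7.44 (36 h), 7.49 and 7.24 (48 h) and 6.88 and 6.56 (72 h). Kif4, a chromosome-bound motor of the central spindle, had 4.96 in the control against 6.15 (24 h), 5.97 (36 h), 5.98 and 5.80 (48 h) and 5.57 and 5.18 (72 h). In both, the 72 h arrays lay below every other toxin array and above the control. Kif2c, which depolymerises microtubules, had 5.60 in the control against 6.48 (24 h), 5.96 (36 h), 6.14 and 5.93 (48 h) and 5.90 and 5.65 (72 h). Its second 72 h array lay close to the control. The cytokinesis motors Kif20a and Kif23 were at 1.16 and 1.23 at 24 h and at 0.25 and 0.61 at 72 h.

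Genes of spindle assembly and cytokinesis lay nearest to the control at 72 h, with a median of 1.19 at 24 h and of 0.44 and 0.03 on the 72 h arrays. Prc1, which bundles the microtubules of the midzone, had a signal of 6.25 in the control against 7.80 (24 h), 7.12 (36 h), 7.33 and 7.04 (48 h) and 6.74 and 6.65 (72 h). Ect2, the exchange factor that starts the cleavage furrow, had 7.78 in the control against 9.01 (24 h), 8.43 (36 h), 8.79 and 8.54 (48 h) and 8.09 and 7.83 (72 h). Nusap1, a microtubule-binding protein of the spindle, had 6.18 in the control against 7.28 (24 h), 6.56 (36 h), 7.07 and 6.46 (48 h) and 6.51 and 6.07 (72 h). Its arrays overlapped between 48 h and 72 h, and the 72 h arrays lay on either side of the control. Tpx2, which nucleates spindle microtubules and activates Aurka, was at 1.14 at 24 h and 0.29 at 72 h. Anln, the furrow scaffold anillin, was at 1.31 and 0.24, and Hmmr, a spindle-associated protein, at 1.16 and 0.21.

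Condensins fold chromosomes for mitosis. Smc2, an ATPase subunit shared by both condensin complexes, had a signal of 5.48 in the control against 7.01 (24 h), 6.49 (36 h), 6.76 and 6.64 (48 h) and 6.15 and 6.16 (72 h). The arrays of each pair lay close together, and the 72 h pair lay below the 48 h pair. Its partner Smc4 had 7.24 in the control against 8.25 (24 h), 7.89 (36 h), 7.94 and 7.85 (48 h) and 7.69 and 7.31 (72 h). Ncapd2, a subunit of condensin I, had 6.06 in the control against 6.89 (24 h), 6.65 (36 h), 6.73 and 6.51 (48 h) and 6.49 and 6.25 (72 h). In both, the 72 h arrays lay below the 48 h arrays and above the control, and at 72 h the second array was the lower, whereas the arrays of Smc2 were level.

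**Figure D3:**
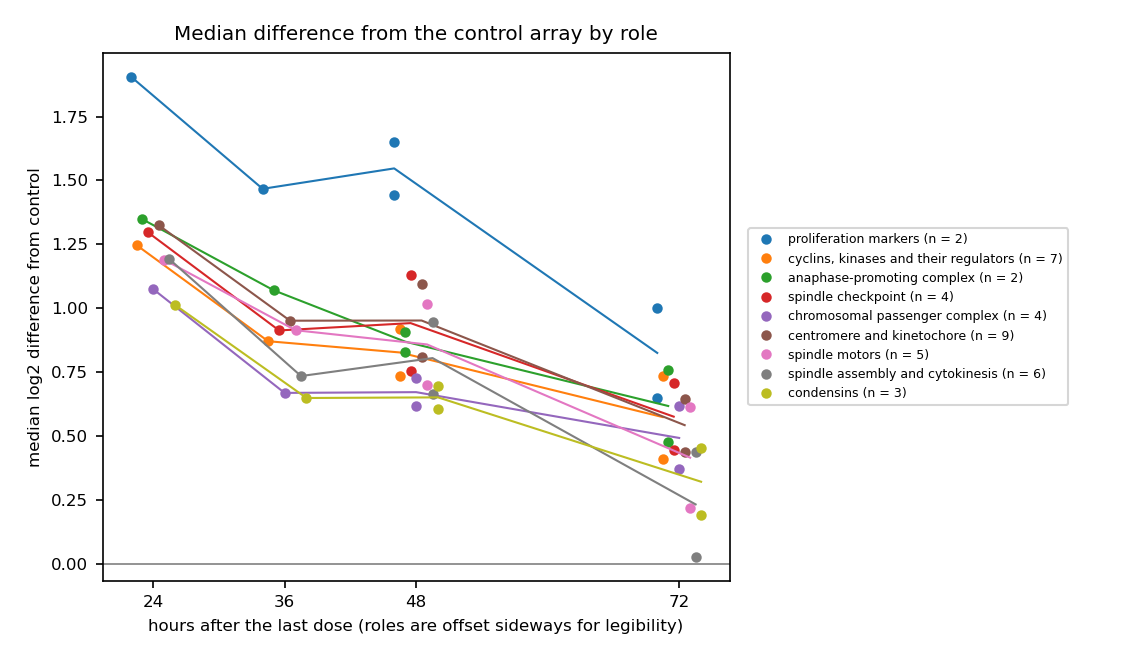
Median log2 difference from the control array (vertical axis) of the genes of each role against hours after the last dose, with a point for each array and a line through the mean of each time. The 2 proliferation markers are highest throughout, from 1.91 at 24 h, and spindle assembly and cytokinesis genes are lowest on the second 72 h array, at 0.03; differences between roles were not tested.

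How far the corpus differed 48 h after the last dose was asked by setting both arrays of that time against the control. All 42 genes were higher, by 0.32 to 1.71 with a median of 0.88, against a median of 0 for all genes. Knl1 was at 1.56 ± 0.17 (SE of the limma fit, 2 arrays against 1), Cenpe at 1.45 ± 0.17, Smc2 at 1.21 ± 0.08 and Spc25 at 0.32 ± 0.13. No member passed in limma, with adjusted p from 0.120 to 0.525 for the 42 genes, and none of the 22180 genes did (0% of all genes). At an unadjusted p under 0.05, 34 of the 42 were higher, against 8.16% of all genes, and none was lower, against 11.6%. That count rests on few residual degrees of freedom: it was 11 without the first 48 h array (10.7% of all genes in that fit), 12 without the second (9.66%), and 20 without either the first or the second 72 h array (7.9%). With array medians subtracted, which moves the median of all genes to -0.12, 167 of 22180 genes passed in limma, 147 of them lower. Mki67 and Smc2 were among them (adjusted p 0.0408 and 0.0469). When the fit was restricted to 14286 genes of 6 or more distinct values, 143 passed, 108 of them lower. Mki67, Cenpe, Knl1 and Smc2 were among these (0.0429 or less).

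Both 72 h arrays were above the control in 39 of 42 genes, against 34.2% of all genes, in the comparison that asked what remained 72 h after the last dose. The mean difference ran from 0.10 for Zwilch to 1.22 ± 0.27 for Spc24, with a median of 0.44. Mki67 was at 1.01 ± 0.13, Ccnb2 at 0.91 ± 0.19, Nusap1 at 0.11 ± 0.37 and Ect2 at 0.17 ± 0.18. None passed in limma, with adjusted p from 0.146 to 0.957, and 0 of all genes did. At an unadjusted p under 0.05, 13 of 42 were higher, against 7.93% of all genes, and 8 were without the first 72 h array, against 8.53%.

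The control array plays no part in the comparison of 72 h with 48 h. Of the 42 genes 41 were lower at 72 h, with a median difference of -0.39, and Spc25 was at 0.01 ± 0.11. Cenpe was at -0.77 ± 0.14 (SE, 2 arrays against 2), Top2a at -0.74 ± 0.23, Knl1 at -0.73 ± 0.14, Ect2 at -0.71 ± 0.15 and Smc2 at -0.55 ± 0.06. Spc24 was at -0.10 ± 0.22, Cdc25c at -0.06 ± 0.10 and Cdca8 at -0.02 ± 0.04, and their signs were not stable: Cdc25c and Cdca8 turned to 0.007 and 0.05 with array medians subtracted, Spc24 to 0.13 without the second 48 h array, and Spc25 to -0.11 without it. No gene passed in limma, with adjusted p from 0.705 to 0.989 for the members. At an unadjusted p under 0.05, 10 members were lower, against 2.8% of all genes, and none was higher, against 4.27%. Without the first 48 h array the count of lower members was 2, or 4.76%, below the 6.63% of all genes in that fit, and without the second 72 h array it was 3, or 7.14%, against 4.48%.

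A slope over the 6 toxin arrays, in log2 signal per 24 h, uses every array except the control. It was below 0 in all 42 genes, with a median of -0.36 against 0.00 for all genes. Zwilch had the steepest slope at -0.65 ± 0.09, followed by Top2a at -0.59 ± 0.11, Knl1 at -0.55 ± 0.09, Kif11 at -0.54 ± 0.08 and Cenpe at -0.53 ± 0.11. The shallowest were Cenpa and Spc25 at -0.13, Cdc25c and Spc24 at -0.14 and Cdca8 at -0.15. No gene passed in limma, with adjusted p from 0.419 to 0.749 for the members. At an unadjusted p under 0.05, 37 of the 42 had a slope below 0, against 4.47% of all genes, and none had one above 0, against 4.22%. Without the 24 h array, which carries the female pattern, all 42 slopes stayed below 0 with a median of -0.30 and 17 had an unadjusted p under 0.05, against 3.54% of all genes lower in that fit. Without the second 72 h array the median was -0.27 and the count was 24, against 3.61%.

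**Figure D4:**
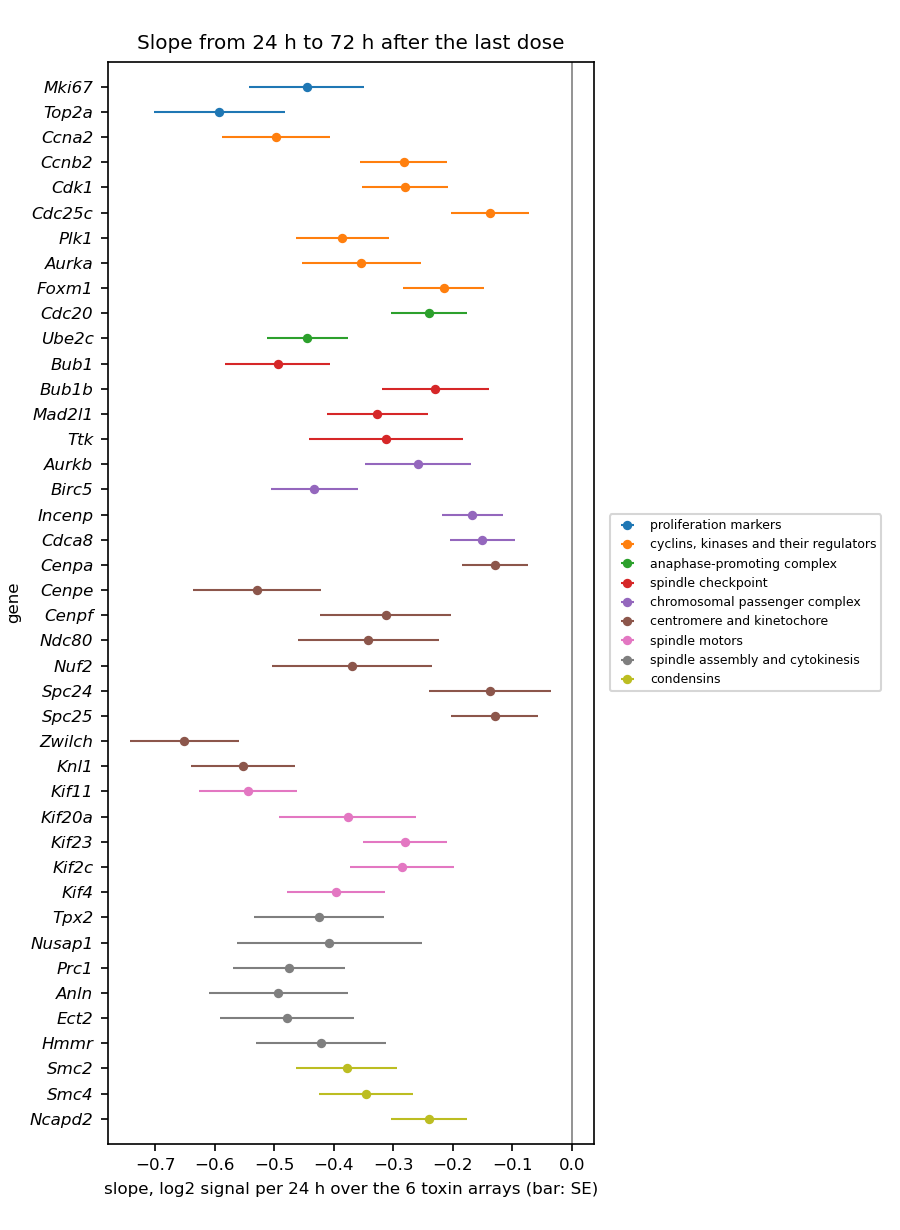
Slope of each gene (rows, coloured by role) in log2 signal per 24 h over the 6 toxin arrays, with the SE of the limma fit as bars. All 42 points lie left of 0, from -0.65 for Zwilch to -0.13 for Cenpa.

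Other genes of the pathway, on lists that hold none of the members, were also mostly higher than on the control, by less. Of 77 other mitosis genes 73 were higher than the control at 24 h, with a median of 0.87, and 61 on the second 72 h array, with a median of 0.25. Of all 22180 genes 9939 were higher at 24 h and 10172 on the second 72 h array. The centriole gene Stil was at 1.52 ± 0.12 at 48 h, the kinetochore gene Nsl1 at 1.16 ± 0.07, the kinase gene Pbk at 1.07 ± 0.23 and the checkpoint gene Trip13 at 1.03 ± 0.30. At 48 h 8 of the 77 genes lay below the control. Among them were Wee1, the kinase that inhibits Cdk1, at -0.50 ± 0.05 and Pttg1 at -0.37 ± 0.15. Of 45 genes that act in S phase or the step into it all were higher at 24 h, with a median of 0.81, and 41 on the second 72 h array, with a median of 0.22. The chromatin remodeller gene Hells was at 1.89 ± 0.25 at 48 h, the ribonucleotide reductase gene Rrm2 at 1.50 ± 0.34, the DNA ligase gene Lig1 at 1.20 ± 0.13 and the transcription factor gene E2f8 at 1.06 ± 0.09. None of these genes passed in limma at 48 h (smallest adjusted p 0.120). At an unadjusted p under 0.05, 46 of the 77 were higher and 2 lower, and 28 of the 45 were higher and 0 lower, against 8.16% and 11.6% of all genes.

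Markers of the other epithelial cells also differed between the arrays. The summed signal of 10 parietal cell markers was 20399 in the control against 6394 (24 h), 13096 (36 h), 8649 and 13816 (48 h) and 15309 and 18674 (72 h). That of the 42 mitotic genes was 2867 in the control against 7315 (24 h), 5528 (36 h), 6093 and 5247 (48 h) and 4519 and 3729 (72 h). Ranked over the 7 arrays, these sums stand in exactly opposite order, but the parietal sum is mostly Atp4a and Atp4b. The median difference of the parietal markers was -1.66 (24 h), -0.61 (36 h), -1.26 and -0.80 (48 h) and -0.57 and -0.25 (72 h). By these medians the opposite order does not hold for 36 h and the second 48 h array. The first array of each pair had the lower parietal sum, and on it 38 of 42 mitotic genes were higher than on the second, at 48 h and at 72 h alike (45.1% and 43.4% of all genes). The part of parietal cell loss in the mitotic signal was not tested. The 5 chief cell markers had medians of -0.91 (24 h), -1.82 (36 h), -0.99 and -0.86 (48 h) and -1.01 and -1.03 (72 h), and the 5 mucous neck cell markers had medians of 0.07 (24 h), 0.64 (36 h), 0.85 and 0.28 (48 h) and 0.91 and 0.63 (72 h). Of the surface pit cell markers Tff1, Gkn1, Gkn2 and Psca lay close to the highest signal of the data on all 7 arrays, so their level says little about these cells. Muc5ac, the dimmest of them, was higher on every toxin array, by 0.46 (24 h), 0.58 (36 h), 0.54 and 0.42 (48 h) and 0.40 and 0.30 (72 h). The part of these cells in the mitotic signal was not tested either.

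Immune cells can also divide, and their markers were summed in the same way. The summed signal of 5 T cell markers was 121 in the control against 125 (24 h), 113 (36 h), 111 and 128 (48 h) and 101 and 109 (72 h). Over the 7 arrays 5 B cell markers ran from 72.5 to 81.2, 8 macrophage markers from 547 to 736 and 5 neutrophil markers from 80.4 to 97.0. The macrophage sum, like that of the mitotic genes, was highest at 24 h and next on the first 48 h array, where Cd68 was at 7.37 and 7.73 against 6.54 on the control, but on the second 48 h array and both 72 h arrays it was below the control. Plasma cell markers summed to 260 in the control against 449 (24 h), 187 (36 h), 321 and 423 (48 h) and 352 and 205 (72 h). The summed endothelial markers were lower on all toxin arrays, with 1508 on the control and 620 to 796 after toxin. The part of these populations in the mitotic signal was not tested.

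**Figure D5:**
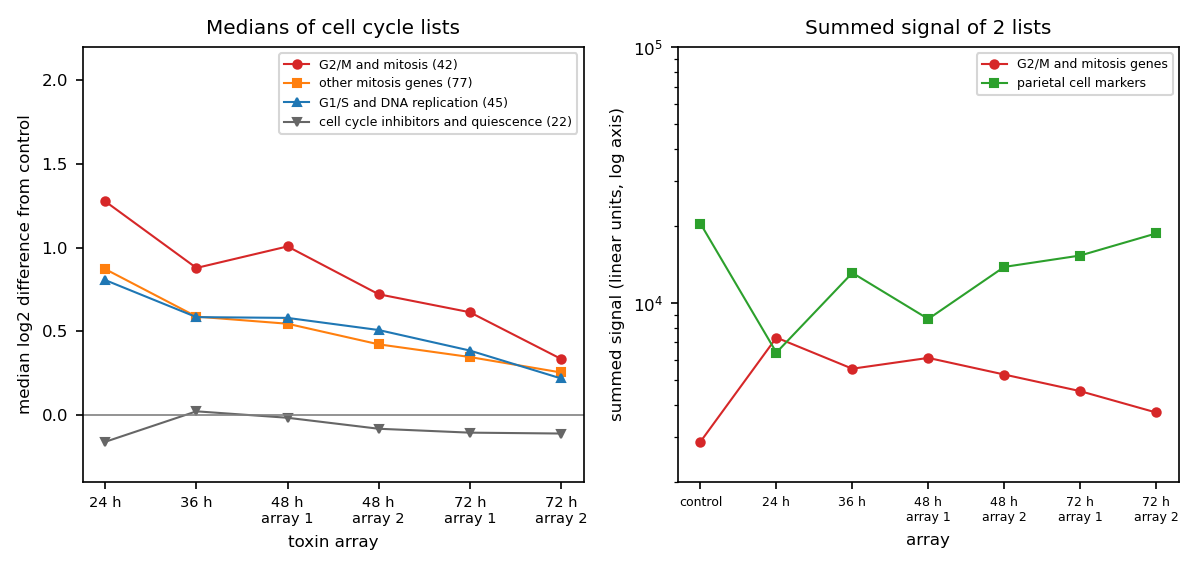
Left, median log2 difference from the control of 4 cell cycle lists on the 6 toxin arrays (number of genes in brackets); right, summed linear signal on a log axis of the 42 mitotic genes and of 10 parietal cell markers on all 7 arrays. The mitotic sum is highest at 24 h, where the parietal sum is lowest.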

How the data were processed

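Per the labels' protocols, biotinylated cDNA was prepared from total RNA (WT Plus reagents of Affymetrix), with 1 array for each sample. The authors deposited log2 signal of 41345 probe sets for 7 arrays. RMA and Partek are named in the submitters' processing notes, without versions. Values were used as deposited, with array medians from 4.56 to 4.71, and array signal has no read depth.

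Probe sets with 1 gene symbol in the platform's annotation (23521, with 1814 of several genes and 16010 of none) were kept, the one with the highest mean where a gene had several, which left 22180 genes. The study's 5 groups were compared with limma 3.58.1 in R 4.3.3 (two-sided, Benjamini-Hochberg over all genes, called under 0.05): 48 h and 72 h against control and 72 h against 48 h in a fit of all 7 arrays with 2 residual degrees of freedom, and a slope over the 6 toxin arrays with 4. The single control is taken to vary as the pairs do, so p-values of the group fit reflect no more than the spread within the 48 h and 72 h pairs. Those of the slope reflect no more than the spread of the 6 toxin arrays around the line. The 24 h and 36 h arrays were set against the control without a test. The fits were also run on simulated data with independent noise for each gene and array. Such data hold no equal values and no shift of a single array shared by genes. They therefore do not show how the fits behave under those features of the real arrays.

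Every measured member is named, in order of role, and in each role those with the largest, the middle and the smallest mean difference from the control have their value on every array. Of other lists, the 4 genes furthest from the control at 48 h are named, with any that opposes its list by over 0.5. Ccnd2 and Pttg1, which lay below the control, are named as well. The members and lists were chosen with earlier results of these data known. Promoter letters were searched in RefSeq windows; no protein sequences were used. Alternatives covered scaling between arrays, probe sets, filters on dim or tied values, the variance model, left-out arrays, the replicate number as a block and the form of the trend.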

Additional observations from a re-analysis of the deposited data

How the results depend on the processing

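Member medians kept their direction in every comparison and alternative run, and no member's direction from the control turned at 24, 36 or 48 h. The count of all genes called at 48 h went from 0 to 167 with array medians subtracted, 7 with quantile normalisation again and 143 among genes of 6 or more distinct values; at 72 h it went from 0 to 30, 5 and 52 in the same order. The members called at 48 h were 2 of those 167 with array medians subtracted, out of 22180 genes. They were 4 of those 143 among the 14286 genes of 6 or more distinct values. Most called genes were lower than the control, 147 and 108. The cause of the added calls was not tested. Members at an unadjusted p under 0.05 were also counted with 1 array of a pair left out. At 48 h they numbered 11 to 20 (7.9% to 10.7% of all genes higher in those fits), and 8 to 12 at 72 h (8.53% to 9.48%). In 72 h against 48 h they were 17 with quantile normalisation again (2.63% of all genes in that fit) and 17 among genes of 6 or more distinct values (3.06%), and 2 to 11 with an array left out (4.48% to 6.63%). The slope gave 17 to 38 with 1 array left out (3.54% to 4.88% of all genes lower in those fits), and its median was -0.48 per doubling of the hours. At 36 h the members at least 2-fold higher were 9 with array medians subtracted, and the share of all genes with that scaling is not given here.

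Turned signs were few. Without the first 72 h array Zwilch, Nusap1 and Anln were at -0.0401, -0.112 and -0.0730 from the control and the inhibitor gene Cdkn2b at 0.24, against 0.25, 0.33, 0.54 and -0.50 without the second. For 72 h minus 48 h, Cdc25c was at 0.00672 with array medians subtracted and 0.00998 with quantile normalisation again, and Cdca8 at 0.0465 and 0.0243. With arrays left out Cdc25c ran from -0.157 to 0.0357 (0.0130 without the first 72 h array), Spc24 from -0.33 to 0.13 (0.0521 without the second 72 h array) and Spc25 from -0.11 to 0.13 (-0.0290 without the second 72 h array).

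The replicate number is shared by label only, and across genes the array 1 minus array 2 differences of 48 h and of 72 h correlated at -0.13. With it as a replicate block (1 residual degree of freedom), 72 h against 48 h gave no called gene and 24 members lower at an unadjusted p under 0.05 (2.38% of all genes), against 10 without pairing. With the numbers of the 72 h arrays crossed, chosen after seeing the data, it gave no called gene and 5 members (2.41%). Of the 42 members 36 had 7 distinct values over the arrays, and equal values, such as those of Cdca8 on both 72 h arrays, narrow the fitted error.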

Other observations

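Genes that act upstream of mitosis did not share 1 course. Of 6 genes of the D type cyclins and growth control, Myc was at 0.97 at 24 h, 0.80 ± 0.10 at 48 h and 0.49 ± 0.10 at 72 h from the control (SE of the limma fit), Cdk6 at 0.42 ± 0.09 at 48 h and 0.37 ± 0.09 at 72 h, and Ccnd1 at 0.35 ± 0.24 and 0.33 ± 0.24. The other D type cyclin genes, Ccnd3 and Ccnd2, lay below the control on every toxin array, at -0.41 ± 0.16 and -0.24 ± 0.11 at 48 h. None passed in limma (smallest adjusted p 0.121 at 48 h).

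Among 22 genes of cell cycle inhibition and quiescence the median was -0.16 at 24 h and between -0.11 and 0.02 on the other toxin arrays. Cdkn1c, which encodes the Cdk inhibitor p57, differed from the control by much the same amount throughout, at -2.03 (24 h), -2.25 (36 h), -1.97 and -2.40 (48 h) and -2.01 and -2.11 (72 h), and its slope over the toxin arrays was 0.03 ± 0.09 per 24 h. Rbl2, which encodes p130, the pocket protein of the DREAM repressor, was at -0.91 (24 h), -0.82 (36 h), -0.81 and -1.11 (48 h) and -0.97 and -0.77 (72 h). Its relative Rbl1, which encodes p107, was at 1.33 (24 h), 0.83 (36 h), 1.07 and 0.79 (48 h) and 0.49 and 0.38 (72 h). Cdkn2b was at -1.27 at 24 h and -0.50 and 0.24 on the 72 h arrays. For Cdkn1c and Rbl2 a response to toxin and a peculiarity of the single control sample cannot be told apart. In limma the adjusted p at 48 h was 0.121 for Cdkn1c and above that for the other 3, so none passed, and at an unadjusted p under 0.05 the list had 1 gene higher and 5 lower, or 4.55% and 22.7%, against 8.16% and 11.6% of all genes.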
